A study of Mus musculus with 2 samples.

Results

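Duct genes are genes by which the epithelial cells lining the bile ducts are recognized, and their RNA was followed here through libraries made from liver sinusoidal endothelial cells (LSECs). The genes were Spp1, Clu, Tm4sf4, Krt8, Krt18, Krt7, Krt19, Epcam and Sox9, found by symbol among the 32285 genes of the count tables, and all 9 were found once each. They were chosen with their UMI counts (unique molecular identifiers, 1 for each captured RNA molecule) in both libraries known, so their levels are given as a description without a test. The study asked what the loss of the transcription factor c-Maf in LSECs does to the liver vasculature. It compared 1 library of LSECs from MafLSEC-KO mice (Maf fl/fl with Clec4g-iCre tg/wt, labelled KO) with 1 library from control littermates (Maf fl/fl or Maf fl/wt with Clec4g-iCre wt/wt, labelled WT), each a pool of 3 mice. The iCre transgene is driven by Clec4g, a lectin gene of LSECs, and all animals carried at least 1 floxed Maf allele. The study used mice of both sexes and of more than 1 age, and which of them entered these pools is not given in the sources used here. Livers were digested with collagenase, non-parenchymal cells were enriched on a Nycodenz gradient, and cells were selected with CD146 magnetic beads.

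Cholangiocytes, the cells of the bile ducts, are epithelial. They hold keratin filaments, adhere to each other through molecules such as EpCAM, and keep a transcriptional program in which SOX9 and Notch signaling take part. Ductular cells spread when the liver is injured, and osteopontin, the product of Spp1, is one of the proteins they secrete. Endothelial cells use vimentin in place of these keratins. A selection on CD146 can carry some duct and mesothelial cells along, and in droplet sequencing RNA set free from broken cells enters every droplet, so UMIs of a duct gene in an endothelial barcode can have more than 1 source.

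In the annotation of GRCm38 (mm10), the build of the count tables, Spp1 lies on chromosome 5 (104435118 to 104441050, plus strand), Clu on chromosome 14 (65968483 to 65981547, plus strand) and Tm4sf4 on chromosome 3 (57425314 to 57441677, plus strand). Krt8 (101996698 to 102004482, minus strand), Krt18 (102028180 to 102032027, plus strand) and Krt7 (101411043 to 101430313, plus strand) share chromosome 15. Krt8 and Krt18 are neighbors 23698 bp apart that are transcribed away from each other. Krt19 (100140810 to 100148665, minus strand) and Sox9 (112782224 to 112787760, plus strand) lie on chromosome 11, and Epcam on chromosome 17 (87635979 to 87651129, plus strand).

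The RefSeq promoter table (GRCm38.p6) matched 6 of the 9 genes, Spp1, Tm4sf4, Krt8, Krt18, Krt7 and Epcam. The 4 sequences below are shown because they stand before the most abundant duct gene (Spp1) and before genes that hold a Maf half-site (Tm4sf4, Krt18) or neither (Epcam), and Maf is the gene deleted in these mice. Each runs 5′ to 3′ on the strand of its gene and ends where the annotated gene begins or at the RefSeq start, and capitals mark the matches.
Spp1 (chr5:104434861-104435110, plus strand): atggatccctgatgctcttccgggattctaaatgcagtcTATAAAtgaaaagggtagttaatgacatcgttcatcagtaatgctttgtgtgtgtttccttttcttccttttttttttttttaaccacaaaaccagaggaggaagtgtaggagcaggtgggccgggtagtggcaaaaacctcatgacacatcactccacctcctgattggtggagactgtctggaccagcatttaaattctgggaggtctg
Tm4sf4 (chr3:57425160-57425313, plus strand): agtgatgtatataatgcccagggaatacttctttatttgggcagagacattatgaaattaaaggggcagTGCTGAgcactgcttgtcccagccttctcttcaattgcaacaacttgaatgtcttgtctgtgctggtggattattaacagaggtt
Krt18 (chr15:102027966-102028179, plus strand): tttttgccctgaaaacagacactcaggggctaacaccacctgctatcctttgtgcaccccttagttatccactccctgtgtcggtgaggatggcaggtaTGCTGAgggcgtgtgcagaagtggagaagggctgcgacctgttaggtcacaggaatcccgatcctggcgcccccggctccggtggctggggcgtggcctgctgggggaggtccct
Epcam (chr17:87635729-87635978, plus strand): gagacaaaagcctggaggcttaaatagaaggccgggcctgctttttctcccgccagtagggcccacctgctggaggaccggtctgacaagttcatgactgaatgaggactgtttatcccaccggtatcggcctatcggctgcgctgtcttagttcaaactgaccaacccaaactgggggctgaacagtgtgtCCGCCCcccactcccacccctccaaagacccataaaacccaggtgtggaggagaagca

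A set of 7 short motifs was searched on both strands of the 250 bases before each RefSeq start. The Maf half-site TGCTGA occurred before Tm4sf4 and Krt18, 2 of the 6 genes, and in 16.1% of the 32851 promoters in the table. The Rbpj core TGGGAA occurred before Krt8 (21.6% of all), the Sox motif AACAAT before Tm4sf4 (9.42%, in the 96 bases next to the RefSeq start that lie within the annotated gene and are not printed), the GC box GGGCGG before Krt7 and Epcam (32.7%) and TATAAA before Spp1 (12.4%). Neither the AP-1 site TGANTCA (6.75%) nor the Tead motif CATTCC (12.6%) occurred before any of the 6. No 2 of these motifs overlap in the sequences shown.

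The libraries held 47681895 UMIs in 5664 barcodes (control) and 89872764 UMIs in 7091 barcodes (MafLSEC-KO), and 10 barcode sequences occurred in both. After removal of barcodes of low count, 4961 and 5423 remained, from which 225 and 308 with the highest doublet scores were taken out. LSECs, cells of endothelial-like clusters without a UMI of Vwf, the von Willebrand factor of larger vessels, numbered 3518 in the control and 3116 in the MafLSEC-KO library. In them Maf stood at 3527 and 123 counts per 1000000 UMIs (CPM), and Clec4g at 3024 and 1535 CPM. The median depth of an LSEC was 9315 UMIs in the control and 14221.5 in the MafLSEC-KO library. Erythroid genes summed to 1196 CPM in control and 13.4 CPM in MafLSEC-KO LSECs. CPM scale the summed UMIs of a cell class by its UMIs outside mitochondrial and ribosomal protein genes, and intervals in parentheses are exact 95% intervals that cover counting error only, since 1 library per condition leaves no replicates.

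Barcodes of duct cells were present in both libraries. They were picked by 16 other duct genes (such as Cldn3, Cldn7, Cdh1, Cftr and Pkhd1), without use of the 9 genes described here, as barcodes with UMIs of at least 5 of the 16. The limit was set after the counts were seen and fell in a gap, as control barcodes held 0 to 2 or at least 8 of these genes and MafLSEC-KO barcodes 0 to 3 or at least 7. There were 8 duct barcodes among 4961 in the control (0.161%, 0.0696 to 0.317%, Clopper-Pearson) and 47 among 5423 in the MafLSEC-KO library (0.867%, 0.637 to 1.15%). The labels name LSECs, so these barcodes stand outside the labelled cell type. Of the 47, 9 carried high doublet scores, and the values below are from the other 38; adding the 9 left Clu at 94.8% and the other genes at 85.8% to 98.8% of these levels. At least 1 UMI of each of the 9 genes was found in 5 of the 8 control and 34 of the 38 MafLSEC-KO duct barcodes.

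Secreted proteins led in the duct barcodes. Spp1, which encodes osteopontin, a ligand of integrins and CD44, ranged from 10594 to 37446 CPM over the 8 control barcodes (median 22594) and from 561 to 59312 CPM over the 38 MafLSEC-KO barcodes (median 19653). Clu, which encodes clusterin, an extracellular chaperone, ranged from 7735 to 34195 CPM (median 17574) and from 561 to 28595 CPM (median 15627). The ranges of both libraries overlapped for each gene. The lowest MafLSEC-KO values belonged to 1 barcode of 4200 UMIs, which held 7 of the 16 duct genes, clustered with endothelial cells and had 2 UMIs of Spp1.

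Membrane proteins and keratins followed at lower levels. Summed over duct barcodes, Tm4sf4, a tetraspanin-like membrane protein, stood at 3818 CPM in the control and 2668 CPM in the MafLSEC-KO library. Krt8 stood at 2281 and 2767 CPM and Krt18, its filament partner, at 2055 and 2505 CPM. Epcam stood at 1383 and 1284 CPM, and Sox9, a transcription factor of duct and progenitor cells, at 590 and 1026 CPM. Krt19 stood at 566 and 905 CPM and Krt7 at 162 and 264 CPM, and Krt7 was missing from 3 of 8 and 4 of 38 barcodes. None of the 9 sums differed 2-fold between the libraries: the log2 ratio of MafLSEC-KO to control ran from -0.52 for Tm4sf4 to 0.80 for Sox9. The hepatocyte gene Alb also had UMIs in all 8 control and all 38 MafLSEC-KO duct barcodes, at medians of 5234 and 3210 CPM. In LSECs Alb summed to 39.3 and 16.9 CPM. The source of Alb in duct barcodes was not tested, so their levels are not taken as free of hepatocyte RNA.

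**Figure D1:**
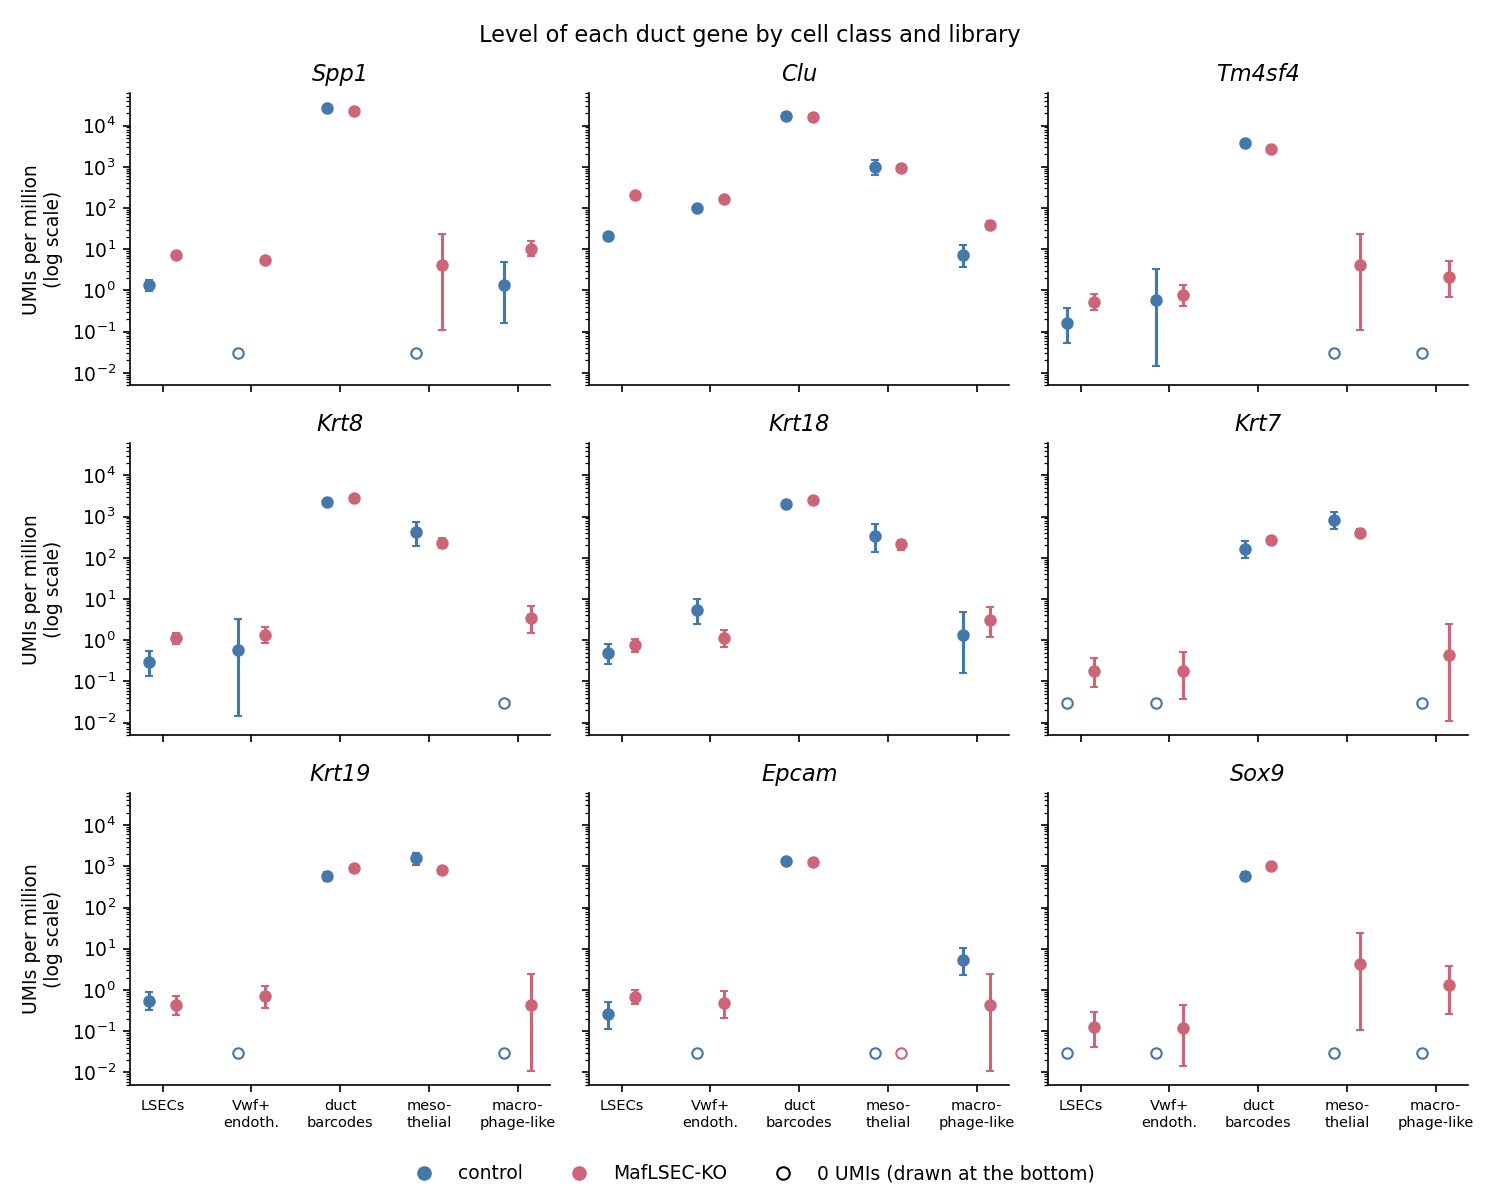
Level of each of the 9 genes (CPM of summed UMIs, log scale) in 5 cell classes of the control (blue) and MafLSEC-KO (red) library; points are sums over the cells of a class, bars are 95% Poisson intervals, and open circles mark 0 UMIs. All 9 genes stand high in duct barcodes, 5 of them also in mesothelial barcodes, and Clu alone exceeds 100 CPM in endothelial classes.

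The keratins and Clu were shared with a second epithelium. Mesothelial barcodes (cells of the liver surface, with UMIs of at least 5 of 8 mesothelial genes such as Msln and Upk3b, a limit moved from 3 to 5 after the counts were seen) numbered 1 in the control and 10 in the MafLSEC-KO library. In the 10 MafLSEC-KO barcodes Krt19 stood at 812 CPM, Krt7 at 400, Krt8 at 227, Krt18 at 210 and Clu at 946 CPM. Epcam was at 0 UMIs in all 11 barcodes, and Spp1, Tm4sf4 and Sox9 had 1 UMI each over the 10 and 0 in the control barcode. The ratio of Krt19 to Krt8 UMIs was 0.248 (0.188 to 0.324) and 0.327 (0.294 to 0.363) in control and MafLSEC-KO duct barcodes and 3.8 (1.86 to 8.55) and 3.57 (2.63 to 4.93) in mesothelial barcodes. Krt8 to Krt18, in contrast, was near 1 in each of these 4 groups (1.11, 1.10, 1.25 and 1.08). Thus Epcam, Spp1, Tm4sf4 and Sox9 were at or near 0 in mesothelial barcodes, while the keratins and Clu had UMIs in both epithelia. Clu was lower in the mesothelial ones. It stood at 985 CPM in the control mesothelial barcode, below all 8 control duct barcodes, and ranged from 498 to 1461 CPM over the 10 MafLSEC-KO mesothelial barcodes. Of the 38 MafLSEC-KO duct barcodes, 1 lay within that range, the one of 4200 UMIs, and the others lay above it.

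Most UMIs of these genes lay in the few duct barcodes. In the control library, 11.95% (11.2 to 12.7%) of the 7899 UMIs of the 9 genes were in endothelial-like cells (LSECs and Vwf+ cells) and 84.8% in duct barcodes. In the MafLSEC-KO library 29.8% (29.4 to 30.3%) of 38929 UMIs were in endothelial-like cells and 66.7% in duct barcodes. Clu set this share: 27.3% of its control UMIs and 54.6% of its MafLSEC-KO UMIs were endothelial-like, against 2.22% (1.82 to 2.67%) and 3.20% (2.96 to 3.47%) for the other 8 genes together. By gene, the share of the other 8 in MafLSEC-KO endothelial-like cells ran from 1.26% for Sox9 to 4.76% for Epcam. In the control, the Krt7 and Sox9 share was 0 of 40 and 0 of 76 UMIs.

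In LSECs, Clu was the 1 gene of the 9 with many UMIs. Control LSECs held 667 UMIs of Clu (21.4 CPM, 19.8 to 23.1) in 443 of 3518 cells, and MafLSEC-KO LSECs held 8171 UMIs (209 CPM, 204 to 214) in 1911 of 3116 cells. The ratio was 9.76-fold (log2 3.29, 3.17 to 3.40). Several UMIs per cell were common, with at least 5 in 616 MafLSEC-KO LSECs and up to 41 in 1 cell, against 8 cells and up to 7 UMIs in the control. After each LSEC was thinned to 2700 UMIs, leaving out 198 and 168 shallower cells, the share of cells with a Clu UMI was 4.61% (3.92 to 5.38%) in the control and 27.4% (25.8 to 29.0%) in MafLSEC-KO LSECs; unthinned it was 12.6% and 61.3%. In MafLSEC-KO macrophage-like cells, which were shallower (median 4558 UMIs), the thinned share was 6.21% (3.72 to 9.63%, 100 cells left out) and the unthinned 13.8%, and in B cell-like cells 2.56% (0.0649 to 13.5%) and 7.69%. The MafLSEC-KO LSEC share of Clu stood above that of both classes. In the control, the thinned share was 0.535% (0.0135 to 2.94%) in macrophage-like and 4.35% (0.531 to 14.8%) in B cell-like cells, and Clu stood at 19.1 CPM (8.23 to 37.5) in the latter. Control LSECs therefore stood above macrophage-like cells but not above B cell-like cells. The control B cell-like cells, however, held endothelial marker genes at 15722 CPM, against 23794 CPM in control LSECs. With such cells the comparison cannot tell the level under the 9.76-fold ratio apart from background.

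Spp1 was the second in number, far lower. Control LSECs held 42 UMIs (1.35 CPM, 0.972 to 1.82) in 41 cells and MafLSEC-KO LSECs 281 UMIs (7.19 CPM, 6.37 to 8.08) in 263 cells, a 5.33-fold difference (log2 2.41, 1.94 to 2.92). No LSEC of either library held more than 2 UMIs of Spp1. The share of MafLSEC-KO cells with a UMI was 8.44% among LSECs (median 14221.5 UMIs) and 10.3% among the 39 B cell-like cells (median 5977 UMIs), taken here as cells that should lack it. Thinned to 2700 UMIs, the share was 2.0% (1.53 to 2.57%) in LSECs, 3.79% (1.91 to 6.69%) in macrophage-like and 5.13% (0.627 to 17.3%) in B cell-like cells. In the control, the thinned share was 0.361% (0.187 to 0.631%) in LSECs, against 0 of 187 macrophage-like cells, which allows up to 1.60%, and 0 of 46 B cell-like cells, which allows up to 6.52%. In MafLSEC-KO LSECs the Spp1 share was thus not above that of the other cells, and in the control no difference was detectable at this depth. The B cell-like interval is wide, and macrophage-like cells were not shown to lack Spp1. The comparison therefore cannot decide whether LSECs express it. The source of the Spp1 UMIs in LSECs was not tested, so they are not read as expression. The study subtracted the mean of empty droplets, and whether the deposited counts hold this step is not given in the sources used here, so these low levels may be before or after it.

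The remaining membrane protein and keratin genes had few UMIs in LSECs. Tm4sf4 had 5 UMIs in control and 21 in MafLSEC-KO LSECs (0.161 and 0.537 CPM, log2 ratio 1.74, 0.30 to 3.51). Epcam had 8 and 27 UMIs (0.257 and 0.691 CPM, log2 ratio 1.43, 0.25 to 2.78). Krt8 had 9 and 44 UMIs (0.289 and 1.13 CPM, log2 ratio 1.96, 0.91 to 3.18), and 5 of the 44 were in 1 cell. Krt18 had 15 and 30 UMIs (0.482 and 0.767 CPM), and its log2 ratio of 0.67 had an interval that covered 0 (-0.27 to 1.67). Control cluster 9, left unnamed and outside the LSECs, held 15 Krt8 and 18 Krt18 UMIs in 131 cells besides its duct barcodes. Those cells held endothelial marker genes at 21239 CPM, and the ratios given here leave them out. With the duct barcodes included, Spp1, Tm4sf4, Clu, Krt8 and Krt18 were among the 10 leading genes of that cluster.

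Krt7 and Sox9 were at 0 UMIs in control LSECs, where a count of 0 allows up to 3 UMIs, and had 7 and 5 UMIs in MafLSEC-KO LSECs, at least 1.86-fold and at least 1.33-fold higher if the MafLSEC-KO counts are taken as exact. With their counting error, the log2 ratio had a lower limit of 0.20 for Krt7 and of -0.45 for Sox9, so that the interval of Sox9 covered 0. Krt19 had 17 UMIs in each library (0.546 and 0.435 CPM). Of the 17 control UMIs, 15 were in 1 cell of 31270 UMIs that had UMIs of 3 of the 8 mesothelial genes and none of Pecam1. With this cell set aside, control LSECs held 2 Krt19 UMIs and the log2 ratio was 2.76 (0.68 to 5.92) in place of -0.33 (-1.39 to 0.73), so that a single barcode decided the direction for Krt19. All MafLSEC-KO LSECs with Krt19, Krt18, Krt7, Sox9 or Tm4sf4 held 1 UMI of it.

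Counted over the genes, 8 of 9 were higher in MafLSEC-KO than in control LSECs, or 9 of 9 without the Krt19 barcode. Of the 7 with at least 10 UMIs over both libraries, 5 were at least 2-fold higher (Spp1, Clu, Tm4sf4, Krt8 and Epcam) and 0 at least 2-fold lower. With doublet-scored cells kept, Epcam was under 2-fold (log2 ratio 0.90, -0.12 to 2.01). Among all 15270 genes with as many UMIs, 16.7% were at least 2-fold higher and 8.19% at least 2-fold lower. The median log2 ratio was 1.74 over the 7 genes and 0.15 over all genes. As the median over all genes lay above 0, being higher by any amount was common, and its share was not counted. The genes were chosen with this contrast known, so the count is no evidence about them.

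The other duct genes stood beside them. The 16 genes that picked the duct barcodes summed to 27 UMIs (0.867 CPM, 0.571 to 1.26) in control and 106 UMIs (2.71 CPM, 2.22 to 3.28) in MafLSEC-KO LSECs; 6 had at least 10 UMIs, of which 4 were at least 2-fold higher and 0 lower. Tspan8 went from 1 to 23 UMIs (log2 4.20, 1.57 to 9.56), Cldn7 from 1 to 10, and Cldn4 was at 0 in both. The number of duct barcodes moved the same way, from 8 to 47. Its part in the LSEC values was not tested.

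Setting each gene against its own level in duct barcodes of the same library placed 8 genes together and Clu apart in MafLSEC-KO LSECs. In MafLSEC-KO LSECs the 8 stood at 0.0125% (Sox9) to 0.0679% (Krt7) of their duct level, Spp1 at 0.0327% (0.0290 to 0.0368%), and the 16-gene sum at 0.0439% (0.0360 to 0.0531%). The interval of 6 of the 8 overlapped that of the sum; Tm4sf4 (0.0201%) and Sox9 lay below it. Clu stood at 1.32% (1.29 to 1.35%), 29.99 times the percentage of the sum. In control LSECs Clu stood at 0.125% (0.116 to 0.135%), 7.82 times that of the sum (0.0160%), and Spp1 at 0.00515%. Krt19 stood near Clu there, at 0.0964%, through the single barcode described above. The ratio of Clu UMIs to those of the other duct genes thus differed between LSECs and duct barcodes in both libraries.

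**Figure D2:**
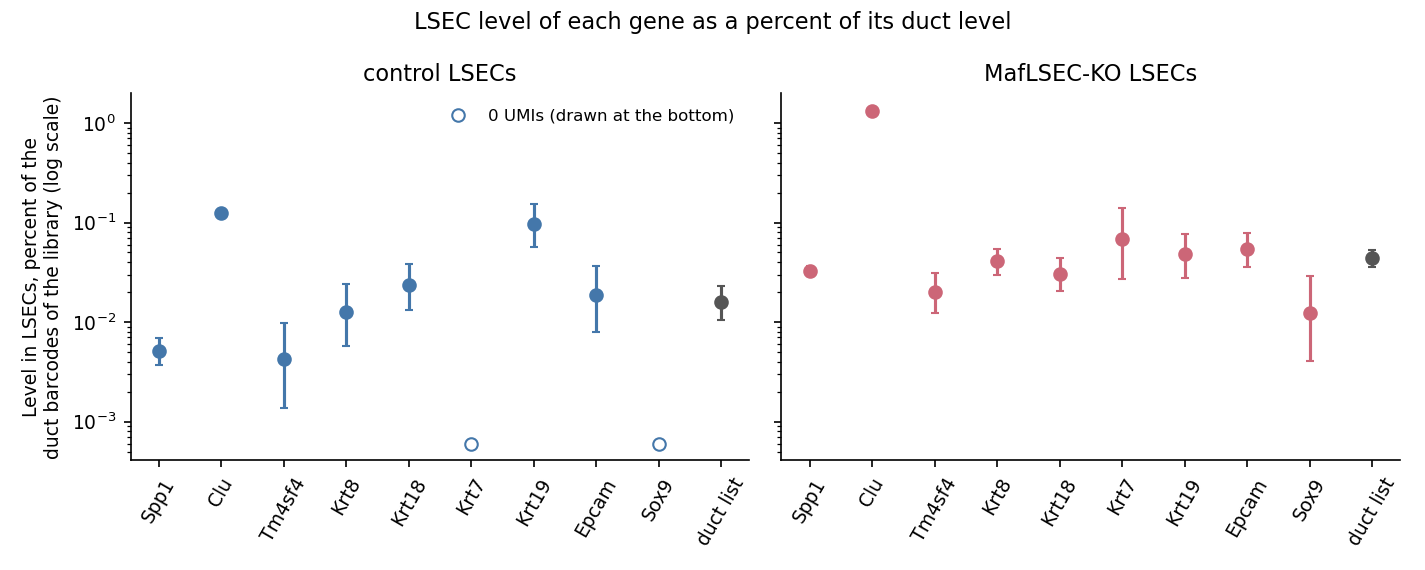
Level of each gene in LSECs as a percent of its level in the duct barcodes of the same library (log scale), with 95% Poisson intervals of the LSEC sum; the grey point is the sum of the 16 other duct genes and open circles mark 0 UMIs. In MafLSEC-KO LSECs Clu stands at 1.32% and the other 8 genes between 0.0125% and 0.0679%.

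Depth gave a second view. LSECs of each library were split by their total UMIs into 3 groups of equal size. From the shallowest to the deepest MafLSEC-KO group the median depth rose 4.43-fold, Clu UMIs per cell rose 7.95-fold (7.34 to 8.63), and Spp1 UMIs per cell rose 1.85-fold (1.38 to 2.50). In the control the median depth rose 2.91-fold, Clu 3.95-fold (3.11 to 5.06) and Spp1 1.91-fold (0.88 to 4.39). In MafLSEC-KO LSECs Clu per cell therefore rose more than median depth. Spp1 rose less there, as did Krt19 (0.667-fold, 0.139 to 2.81). Scaled by the UMIs of all genes, Clu rose over the 3 MafLSEC-KO groups (114, 149 and 176 CPM). In the control it stood at 15.6, 22.1 and 18.0 CPM, so a rise beyond depth is not shown there. For the other genes, and for Spp1 and Krt19 in the control, the interval covered the ratio of median depths or no ratio could be formed. For Krt18 in the control the upper limit (3.09) lay just above that ratio. UMIs of the 8 genes other than Clu were scattered: they occurred in 78 control and 392 MafLSEC-KO LSECs, and no more than 2 of the 8 genes in any one, seen in 1 and 14 cells.

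**Figure D3:**
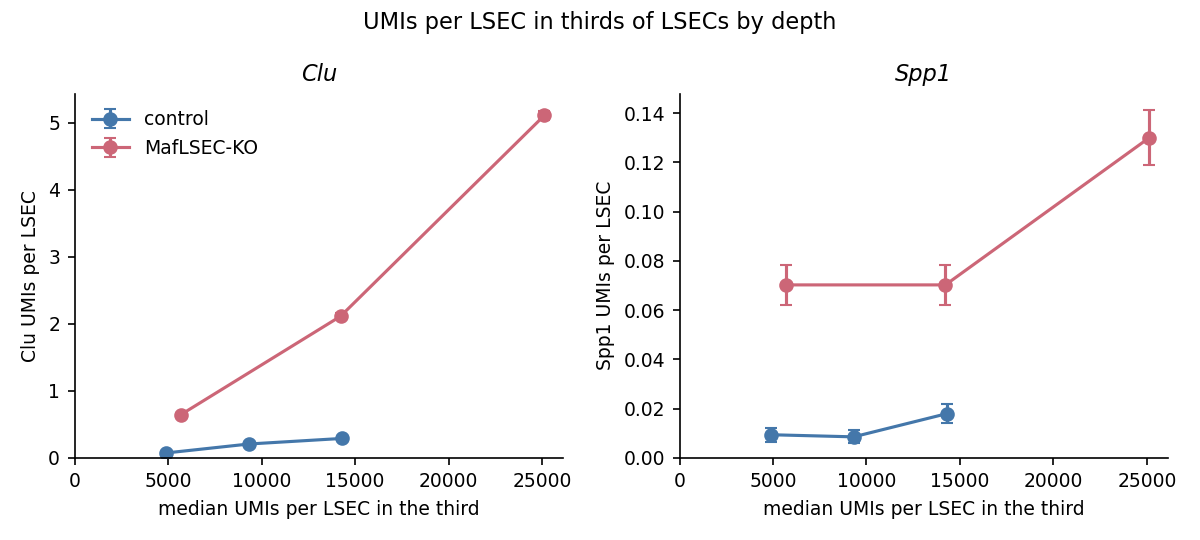
UMIs of Clu and Spp1 per LSEC against the median depth in 3 equal groups of LSECs by total UMIs (control blue, MafLSEC-KO red); bars are the square root of the UMI sum over the number of cells. Clu in MafLSEC-KO LSECs goes from 0.643 to 5.11 UMIs per cell while Spp1 goes from 0.0703 to 0.130.

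Clu differed between endothelial-like clusters. In the control, clusters 1, 2, 5 and 8 stood between 10.6 and 19.1 CPM, while cluster 4, led by the central-vein genes Rspo3 and Wnt9b, stood at 54.5 CPM (48.0 to 61.6) and cluster 7, led by Igfbp5, Nrg1 and Jag1, at 64.7 CPM (54.1 to 76.8). In the MafLSEC-KO library, cluster 6, led by the arterial connexin gene Gja5 and by Npr3, stood highest at 286 CPM (271 to 302) and next to it cluster 2, led by hemoglobin and interferon genes, at 273 CPM (265 to 281), and their intervals overlapped. The cycling clusters 3 and 5 followed at 201 and 191 CPM, also with overlapping intervals, then cluster 8 with Rspo3 at 136 CPM and cluster 1 at 113 CPM. Cluster 7 of this library, in which Maf stood at 2319 CPM against 14.0 to 29.0 CPM in the other clusters, had 29.4 CPM of Clu (22.0 to 38.5). Maf was among the 10 leading genes of cluster 7, and the clusters were built on all genes, so these levels are a description.

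Spp1 did not share that order. It stood at 9.04 CPM (5.17 to 14.7) in cluster 7, at 8.16 CPM (6.76 to 9.76) in cluster 1 and at 4.08 CPM (2.46 to 6.37) in cluster 6. In the control its clusters ranged from 0 to 2.60 CPM with overlapping intervals. When MafLSEC-KO LSECs were grouped by their own Maf UMIs, Clu stood at 214 CPM (209 to 220) in the 2454 cells with 0, at 225 CPM (212 to 238) in the 335 cells with 1 and at 150 CPM (139 to 163) in the 327 cells with 2 or more. Spp1 stood at 7.36, 5.71 and 7.82 CPM in the same groups, with overlapping intervals. The cells with 2 or more were shallower (median 11543 UMIs against 14074.5 in those with 0).

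**Figure D4:**
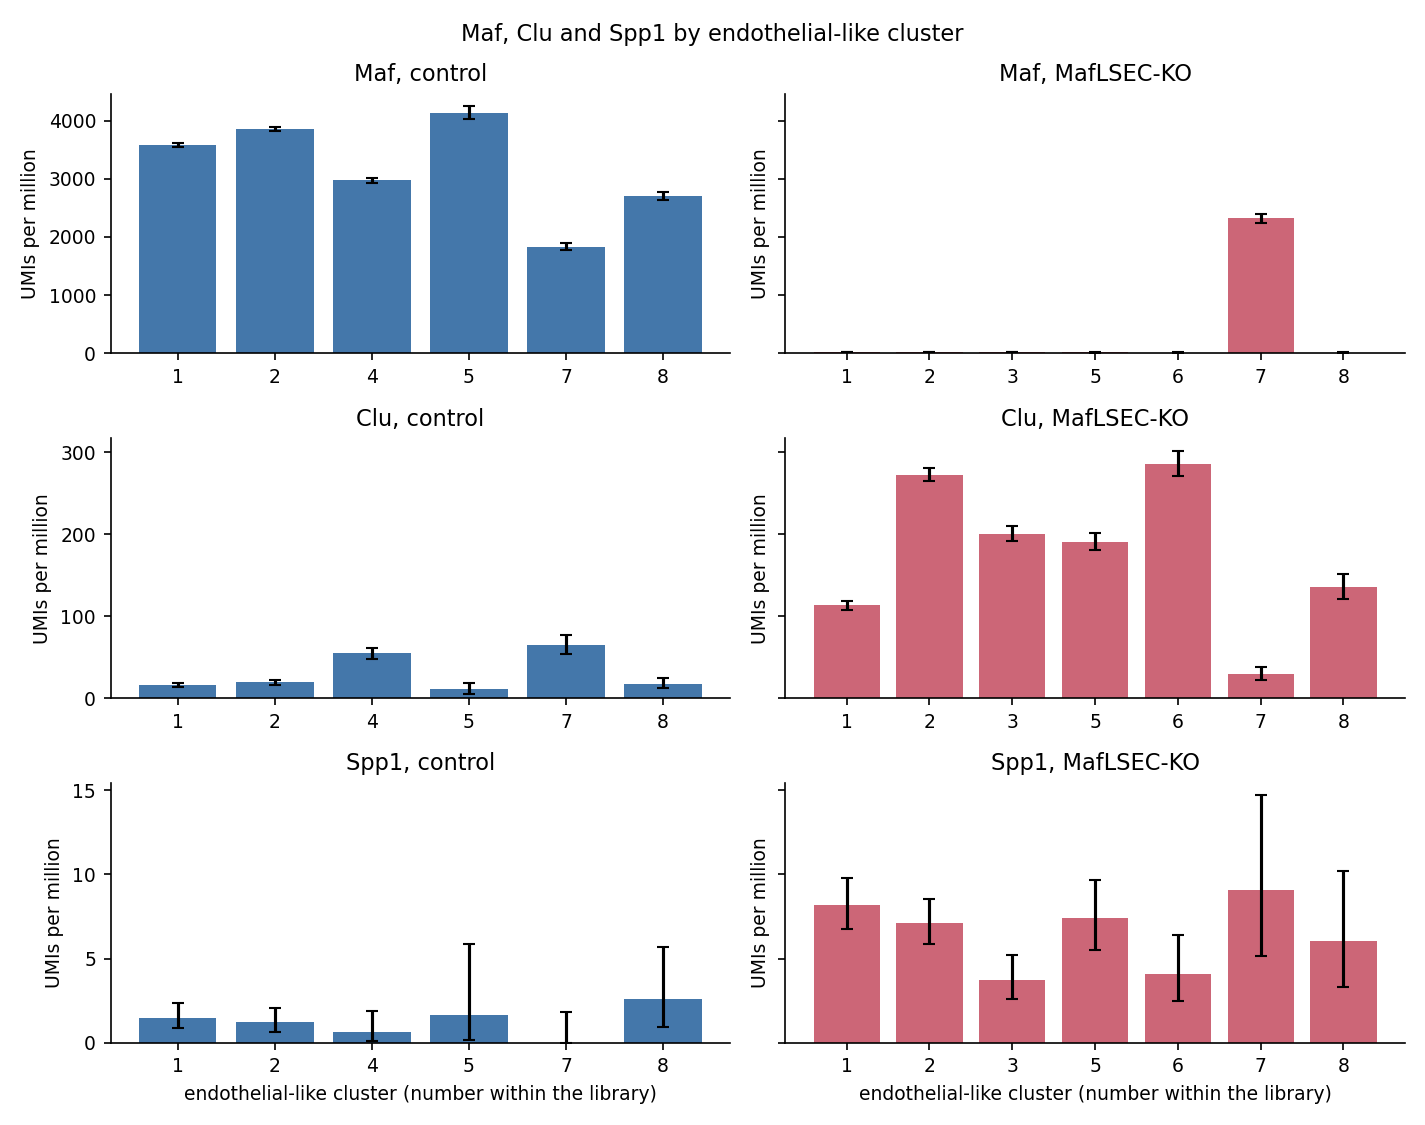
Maf, Clu and Spp1 (CPM, linear axes from 0) in each endothelial-like cluster of the control (left) and MafLSEC-KO (right) library, Vwf+ cells included; bars are cluster sums with 95% Poisson intervals, and numbers rank clusters by size within each library. Clu is lowest among MafLSEC-KO clusters in cluster 7 (29.4 CPM), where Maf is highest (2319 CPM).

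Vwf+ endothelial cells numbered 155 in the control and 1135 in the MafLSEC-KO library. Clu stood at 99.5 CPM (85.1 to 116) in the former and 168 CPM (162 to 174) in the latter, a 1.69-fold difference (log2 0.76, 0.53 to 0.99). Vwf+ cells stood above LSECs in the control and below them in the MafLSEC-KO library. The classes differ in make-up, however. Most control Vwf+ cells were in clusters 4 (62 cells) and 7 (67 cells). The MafLSEC-KO ones were spread over clusters 1 (341), 6 (259), 2 (190), 8 (153), 3 (109), 5 (70) and 7 (13). The Clu ratio of Vwf+ cells thus compares unlike mixtures of cells. Spp1 had 0 UMIs in control Vwf+ cells and 90 (5.34 CPM) in MafLSEC-KO Vwf+ cells, at least 3.04-fold higher (lower limit of the log2 ratio 1.28 with counting error). Krt18 had 9 UMIs in 4 control Vwf+ cells, 6 of them in 1 cell, and 19 in MafLSEC-KO Vwf+ cells (log2 ratio -2.23, -3.44 to -0.90).

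Other cells carried the duct genes at low levels too. In MafLSEC-KO macrophage-like cells 6 of the 8 genes other than Clu had a higher CPM than in LSECs, such as Spp1 at 10.4 CPM (6.66 to 15.5) and Krt8 at 3.46 CPM (1.5 to 6.82). Clu was at 39.0 CPM (31.3 to 47.9) there, below its LSEC level. In the control 2 of the 8 had a higher CPM in macrophage-like cells than in LSECs. There Spp1 stood at 1.32 CPM and Clu at 7.26 CPM. Barcodes of low count, under 1500 UMIs or 750 genes, held Spp1 at 182 CPM (156 to 210) and Clu at 345 CPM (309 to 384) in the MafLSEC-KO library and at 9.22 and 46.1 CPM in the control. The sum of the 16 other duct genes differed little there, at 29.8 CPM (29 UMIs) in the MafLSEC-KO library and 27.7 CPM (12 UMIs) in the control. Mitochondrial genes held 19.3% and 29.2% of the UMIs of low-count barcodes. In the MafLSEC-KO library all 9 genes stood higher in these barcodes than in LSECs, and in the control Clu and 6 of the other 8 did.

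A few leukocytes stood out. Of the 36 Spp1 UMIs in the 60 MafLSEC-KO T/NK cell-like cells, 31 were in 1 cell, and of the 26 in the 70 cells of cluster 11, which was led by Cd209a and MHC class II genes and left unnamed, 13 were in 1 cell. Epcam stood at 18.5 CPM (8.88 to 34.1) in cluster 11, in 8 of its 70 cells, and at 23.7 CPM (7.69 to 55.3) in MafLSEC-KO B cell-like cells. Both were above its 0.691 CPM in LSECs. Krt7, Krt8, Krt18 and Krt19 were at 0 in T/NK and B cell-like cells of both libraries. The upper limits of these zeros ran from 8.79 CPM (control B cell-like) to 21.0 CPM (control T/NK cell-like). The keratins of LSECs stood below these limits, so the zeros show no difference from LSECs.

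Partners and relatives of the 9 genes were looked up in LSECs. Among 8 receptor genes for osteopontin, 3 were at least 2-fold higher in MafLSEC-KO LSECs and 2 at least 2-fold lower. Cd44 went from 0.803 to 2.51 CPM, Itgb3 from 22.4 to 49.5 CPM and Itga4 from 0.417 to 1.53 CPM, while Itgav went from 26.7 to 12.3 CPM and Itga9 from 401 to 127 CPM. Itgb1, the most abundant, stood at 718 and 734 CPM. Of 4 clusterin receptor genes 2 had at least 10 UMIs, and Trem2, a macrophage gene, went from 7 to 39 UMIs. Of 10 macrophage markers 5 were at least 2-fold higher, against 16.7% of all genes. Whether the 2 are linked was not tested.

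Among relatives with at least 10 UMIs, 2 of 6 were at least 2-fold higher and 0 lower. Sox4 went from 72.0 to 228 CPM and Tm4sf5 from 3 to 15 UMIs, whereas the endothelial genes Sox18 (210 to 298 CPM), Sox17 (75.2 to 90.6) and Tm4sf1 (551 to 884) differed by less than 2-fold. The intermediate filaments of endothelial cells stood far above the keratins. Vim went from 476 to 881 CPM, Nes from 98.2 to 203, and the nuclear lamins Lmna from 9.41 to 33.7 and Lmnb1 from 20.8 to 100.2 CPM. Des and Synm, filaments of stellate and muscle-like cells, went from 1.48 to 0.205 and from 1.35 to 0.563 CPM. Of the 7 filament genes with at least 10 UMIs, 3 were at least 2-fold higher and 2 lower.

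Markers of other cells moved in both directions in LSECs. Macrophage genes summed to 67.4 CPM in the control and 117 CPM in the MafLSEC-KO library, hepatocyte genes to 138 and 63.6 CPM, and stellate genes to 263 and 119 CPM. Most of the stellate sum was Hgf (147 and 79.0 CPM), which the study also followed as an angiocrine factor, and Ecm1 (90.6 and 31.8 CPM). Every other stellate gene stood at 12.5 CPM or lower, so the stellate sum is not read as RNA of stellate cells. All 10 macrophage, 10 hepatocyte and 10 stellate genes had UMIs in both libraries. The mesothelial sum went from 6.29 to 59.9 CPM through Gpm6a alone (5.43 to 59.2 CPM), while Msln had 1 and 2 UMIs. Their part in the values of the duct genes was not tested.

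By likeness over cell classes, Pearson correlations of log2(CPM + 1) were taken over all 21 class sums of both libraries, a choice made after the data were seen, as a description of sums that share libraries and depth. Krt8 and Krt18 were each other's nearest gene (r = 0.99). Epcam was nearest to the adhesion gene Cdh1 (r = 0.91), Krt19 to the bicarbonate transporter gene Slc4a4 (r = 1.0), Krt7 to Fxyd3 (r = 0.99), Tm4sf4 to Bche (r = 0.97), Sox9 to Shank2 (r = 0.97), Spp1 to Dsc2 (r = 0.89) and Clu to Eps8l2 (r = 0.94). Over the 13 sums of at least 50 cells, which hold no duct barcodes, the nearest genes were others in every case, such as C130074G19Rik for Clu (r = 0.95) and Slc52a2 for Spp1 (r = 0.92). Krt8 was nearest to Etnk2 (r = 0.96) and Krt18 to Adh1 (r = 0.94), followed by Gnmt (r = 0.94) and Car5a (r = 0.92). Gnmt was also among the 10 leading genes of MafLSEC-KO cluster 12, which held hepatocyte markers among its 50 leading genes. The source of keratin UMIs outside duct barcodes was not tested.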

How the data were processed

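Single-cell RNA was measured in 1 library per condition. The counts deposited by the authors are whole UMI counts per gene and barcode, without normalization, aligned to mm10 with Cell Ranger 6.0.2 per the labels (the submitters also name Seurat 5.0.1). Barcodes under 500 UMIs were not analysed here, so the empty droplets, whose mean the study subtracted, were not used. Whether the deposited counts hold that subtraction is not given in the sources used here, and it was not repeated. The study's lower limits of 1500 UMIs and 750 genes per barcode were applied. Seurat 5.3.0 (R 4.3.3) clustered each library on log-normalized counts with 16 (control) or 20 (MafLSEC-KO) principal components at resolution 0.3. Scrublet in scanpy 1.11.5 scored doublets; its automatic limit marked 0, so 0.8% per 1000 barcodes with the highest scores were removed.

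Clusters were endothelial-like where Pecam1 and at least 7 of 14 endothelial genes had UMIs in 50% of cells; clusters led by genes of other cells (control 3, MafLSEC-KO 9 and 12) were set aside after the data were seen, as were duct and mesothelial barcodes. Clusters with a gene of the study's exclusion list in over 50% of cells were not taken as endothelial-like, control cluster 9 among them. Other clusters were named by at least 3 markers among their 50 leading genes. Control cluster 9 and MafLSEC-KO cluster 11 were left unnamed, and neither was counted as LSECs. Intervals (95%) are Poisson or Clopper-Pearson (scipy 1.17.1). Where a cell class had 0 UMIs, folds were set against 3 counts in that class. The calculation of ratios was checked on simulated LSEC sums, where 95.4% of 14529 intervals held the true ratio. The sums were drawn as Poisson counts, the model of the intervals, so this coverage was built in. UMIs clumped in single cells were not simulated, and genes with the fewest control UMIs, Krt7 and Sox9 among them, were left out. The 9 genes and all lists were chosen with earlier results of these data known. All 9 genes are named, then genes from fixed lists and the nearest gene in pattern. With 1 library per condition no p-value was computed. Alternatives (scaling by all UMIs or TMM of edgeR 4.0.16, means per cell, thinning, cell filters, resolution 0.5) are given at the end.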

Additional observations from a re-analysis of the deposited data

Results flagged for a closer look

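Epcam was higher in MafLSEC-KO than in control LSECs (log2 ratio 1.43) and lower in macrophage-like cells (log2 ratio -3.61, counting interval -9.08 to -0.71), so both intervals lay on opposite sides of 0; the difference between the classes was not tested. With doublet-scored cells kept, the LSEC ratio was 0.90 (-0.12 to 2.01), under 2-fold and with an interval that covered 0, and thinning to 2700 UMIs (-1.27 to 3.78) and leaving out LSECs with markers of other cells (-0.43 to 4.03) gave intervals that covered 0 too. The macrophage-like value rests on 8 UMIs in 3 of 219 control cells, 5 of them in 1 cell, against 1 UMI in 390 MafLSEC-KO cells.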

How the results depend on the processing

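No paired analysis was possible because each condition is 1 library, and for the same reason no replicate could be left out. The count of genes higher in MafLSEC-KO LSECs was 8 or 9 of 9 under all 12 alternatives. With thinning, without LSECs with markers of other cells and with means per cell, the 9 included Krt7 and Sox9. No ratio was formed for these 2 genes there, so their part of the count carries little weight. The percent of UMIs of the 9 genes in endothelial-like cells (11.95% in the control, 29.8% in the MafLSEC-KO library) moved beyond its counting interval to 12.7% and 23.9% with doublet-scored cells kept and to 10.8% and 29.2% at resolution 0.5, and in the MafLSEC-KO library to 31.4% with barcodes over 10% mitochondrial UMIs left out. Of 102 log2 ratios of single genes under alternatives, 91 stayed within the interval of the value given and 0 of those at least 2-fold changed sign. Clu ranged from 2.95 (cells with a Vwf UMI kept) to 3.30, Spp1 from 2.22 to 2.93, Tm4sf4 from 1.54 to 2.94, Krt8 from 1.31 to 2.68, Epcam from 0.90 to 1.93 and Krt18 from 0.26 to 1.04. Krt19 ranged from -0.53 to 2.96, as it turned with 1 barcode. Leaving out LSECs with markers of other cells (2224 and 1869 remained) gave Clu 3.13. Krt7 and Sox9 gave no ratio under 3 alternatives each. Chosen after seeing the data were putting back the clusters and barcodes that were set aside, calling mesothelial barcodes from 3 genes, and taking genes most alike over all class sums. Scaling by all UMIs lowered every log2 ratio by 0.20 and TMM by 0.12. Depth limits the keratins, Epcam, Tm4sf4 and Sox9, each with 44 UMIs or fewer in the LSECs of a library.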
